A study of Mus musculus with 12 samples.

Results

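This section describes 40 genes, read out of a table of 23079 genes, that were listed as identity genes of hindbrain neurons other than the sorted pontine neurons. Not all of them are particular to those other neurons: Zic1 and Zic2 stood at percentiles 99.8 and 95.5 of the table in the references. The 40 genes were picked by symbol, with no measured value in the rule but with earlier results of these data known. They were 15 monoaminergic, 8 cholinergic and motor, 10 inhibitory and 7 cerebellar granule neuron genes, and all 40 had a row in the table. The libraries came from the pontine nucleus of CD-1 mouse embryos at E18.5, late gestation, where RNA of sorted, genetically labelled neurons was amplified and sequenced. Hoxa5tdTomato (n = 3) has columns that name Hoxa5 and cre. Math1Hoxa5-IRES-GFP (n = 3) has columns that name Math1, Cag, lsl and Hoxa5. Math1tdTomato (n = 6), the reference of the series design, has 3 columns that name Math1 and creErt2 and 3 that name Math1 and tdT. Where 6 reference values are listed, the creErt2 libraries come before the tdT libraries, each in the order of their column numbers. The labels do not say which alleles beyond these names any animal carried, whether embryos were pooled, or whether libraries of a group came from separate embryos, so a p-value measures the spread between these libraries. They also do not say which references were made beside which other group.

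The pontine nucleus relays cortical signals to the cerebellum through glutamatergic neurons that arise from Math1-expressing cells of the rhombic lip, the source of cerebellar granule neurons as well. Serotonergic, noradrenergic, motor and most inhibitory neurons of the hindbrain arise from other progenitors, whereas some cholinergic neurons of the dorsal tegmentum also come from Math1-expressing cells. Each type is set apart by transcription factors that fix its identity and by enzymes and transporters that make, load and recover its transmitter. Single steps of such a chain, such as a transporter, can be found in neurons that do not release that transmitter.

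The sorted libraries held many of these genes at or near 0 and a few at higher levels, in each of the 4 classes. No count was found in any of the 12 libraries for 7 members: Fev, which commits neurons to a serotonergic fate, Mnx1 and Lhx3 of motor neurons, Ptf1a, Dlx5 and Dlx6 of inhibitory neurons, and En2 of the cerebellum. A further 8 had under 10 counts in all libraries together, which brought that group to 15. Counts in every library were found for 8 members, and the same 8 (Slc18a2, Th, Slc18a3, Slc5a7, Lhx1, Zic1, Zic2 and Etv1) reached a mean of 10 CPM (a gene's counts scaled to a fixed library total, here with TMM factors) in at least 1 of the 4 column-name groups. Only 17 members passed the filter on low counts and were tested, 6 monoaminergic, 4 cholinergic and motor, 3 inhibitory and 4 granule neuron genes, and 23 were not. In a single library, the limit that a count of 0 allows was 0.107 to 0.274 CPM.

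**Figure D1:**
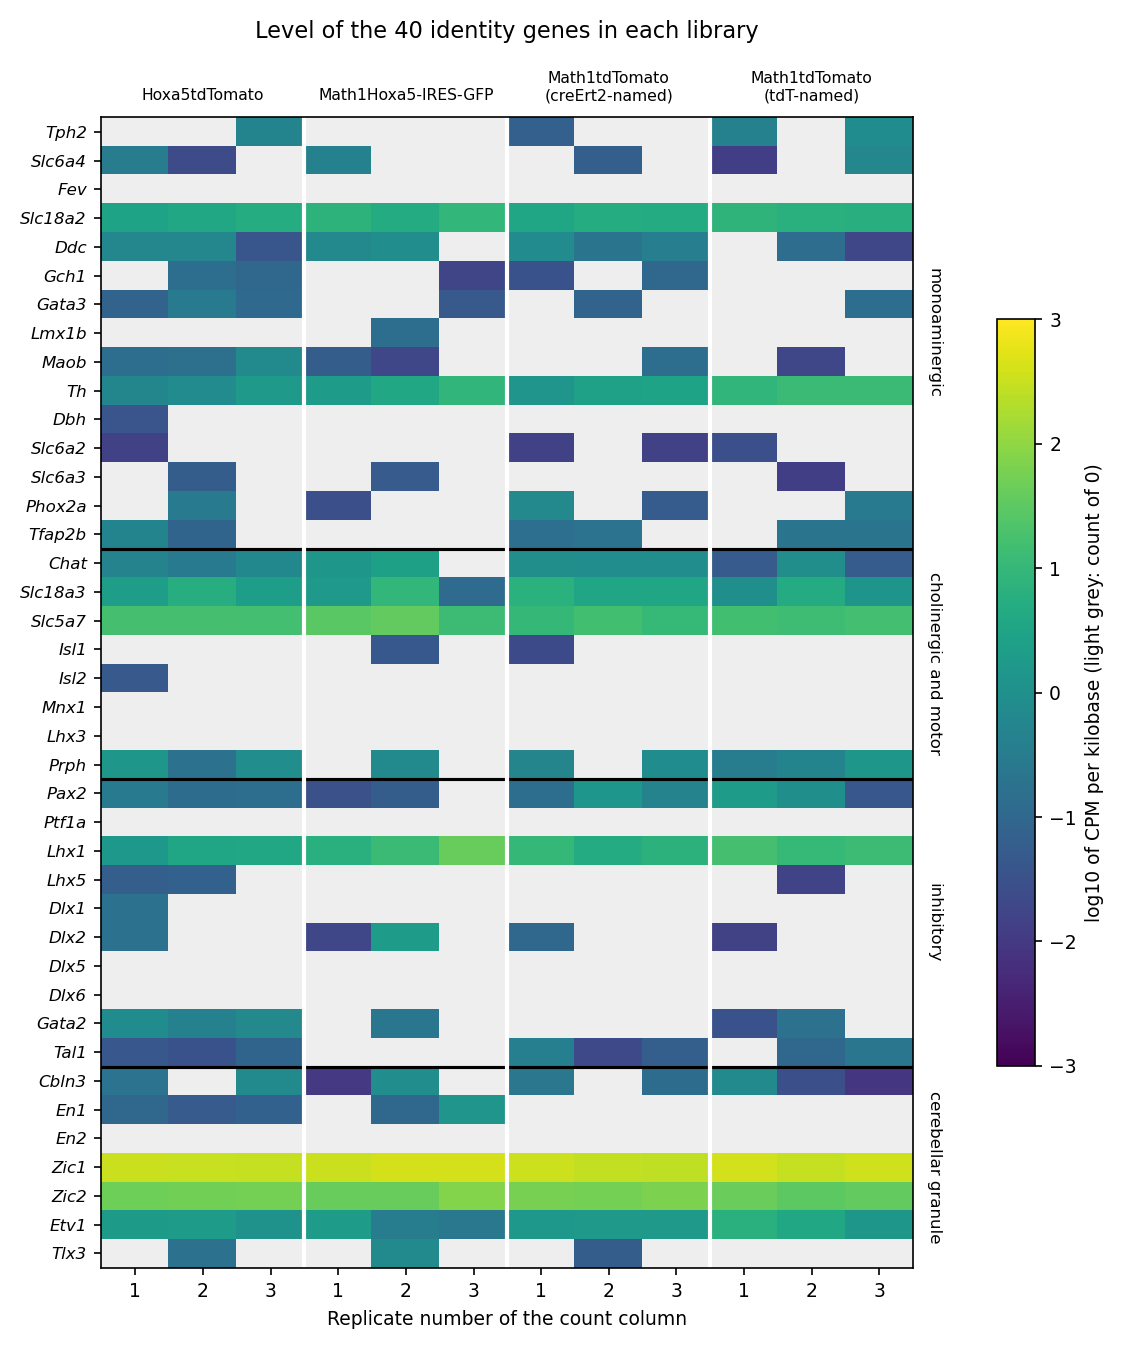
Level of each of the 40 members in each of the 12 libraries, as the log10 of CPM per kilobase of gene length (colour; light grey marks a count of 0), with genes in rows by class and libraries in columns by column-name group. Zic1 is the highest member in every library, at 327 CPM per kilobase on average in the references, and the rows of 7 members are grey throughout.

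Per kilobase of the deposited gene length, Zic1 reached 327 CPM per kilobase in the references, the 99.8th percentile of the table, and Zic2 reached 48.2, the 95.5th percentile. Slc5a7 at 13.5 and Lhx1 at 10.5 CPM per kilobase stood at percentiles 80.1 and 76. Th averaged 6.72 over the references, where the median of tested genes was 6.59. Neither kind of reference stood near that mean, with Th at 2.36 in creErt2 and 11.1 in tdT libraries. Slc18a2 lay below that median at 5.61 CPM per kilobase, followed by Slc18a3 at 3.45 and Etv1 at 2.79. Every other member was under 1 CPM per kilobase in the references. Summed over a class, the granule neuron genes gave 365 CPM per kilobase in Hoxa5tdTomato, 435 in Math1Hoxa5-IRES-GFP, 363 in the creErt2 references and 395 in the tdT references. The monoaminergic genes together gave 6.67, 12.9, 7.78 and 18.9 CPM per kilobase in the same groups, the cholinergic and motor genes 21.3, 31.3, 17.9 and 18.6, and the inhibitory genes 4.04, 20.1, 8.19 and 14.8.

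Promoter sequences of 4 members are shown because they set transporters that were counted in all 12 libraries (Slc18a2 and Slc5a7) beside transcription factors with no count in any (Mnx1 and Ptf1a). They are the 250 bases before the annotated start in RefSeq, build GRCm38.p6, read 5′ to 3′ on the gene's strand, and lie, in the order of the lines, at chr19:59260628-59260877 (plus strand), chr17:54299035-54299284 (minus strand), chr5:29478471-29478720 (minus strand) and chr2:19445413-19445662 (plus strand). None of these windows overlaps an exon of the GENCODE M21 annotation, and capitals mark each CG dinucleotide, which reads the same on both strands and cannot overlap itself.
Slc18a2: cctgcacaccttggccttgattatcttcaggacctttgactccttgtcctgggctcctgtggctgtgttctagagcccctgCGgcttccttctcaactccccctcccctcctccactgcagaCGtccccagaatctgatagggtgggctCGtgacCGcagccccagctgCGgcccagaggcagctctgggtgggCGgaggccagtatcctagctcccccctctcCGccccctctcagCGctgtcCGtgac
Slc5a7: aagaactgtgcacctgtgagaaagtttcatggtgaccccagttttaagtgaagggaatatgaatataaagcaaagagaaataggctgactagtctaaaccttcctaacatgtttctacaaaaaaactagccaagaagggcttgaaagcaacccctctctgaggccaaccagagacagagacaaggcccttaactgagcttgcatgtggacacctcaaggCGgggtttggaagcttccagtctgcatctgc
Mnx1: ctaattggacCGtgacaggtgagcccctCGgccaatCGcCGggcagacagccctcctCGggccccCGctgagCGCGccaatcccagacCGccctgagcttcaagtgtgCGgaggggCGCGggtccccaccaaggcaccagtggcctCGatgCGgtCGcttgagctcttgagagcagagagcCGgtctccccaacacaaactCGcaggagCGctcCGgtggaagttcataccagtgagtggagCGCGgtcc
Ptf1a: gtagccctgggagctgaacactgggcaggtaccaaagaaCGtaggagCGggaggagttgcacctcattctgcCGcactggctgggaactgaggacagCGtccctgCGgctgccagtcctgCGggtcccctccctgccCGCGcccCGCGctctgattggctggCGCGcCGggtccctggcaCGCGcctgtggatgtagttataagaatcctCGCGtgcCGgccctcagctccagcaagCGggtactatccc
Slc18a2 held 9 CG dinucleotides and Slc5a7 held 1, against a median of 6 over 32851 promoters. Mnx1 held 21 and Ptf1a 19. The share of all promoters with at least as many was 40.3% for Slc18a2, 92.1% for Slc5a7, 16.3% for Mnx1 and 19.7% for Ptf1a. The pair with no count had more CG dinucleotides than the pair counted everywhere. Zic1, the most abundant member, held 27, and Isl1, with 5 counts in all libraries, held 33. A relation of CG dinucleotides to level over the 33 members with a promoter was not tested.

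Hoxa5 itself was read first as a check of the labels. It had 127, 222 and 119 CPM in Hoxa5tdTomato libraries, 9.73, 16.8 and 82.0 CPM in Math1Hoxa5-IRES-GFP libraries, and 8.79, 8.62, 23.1, 8.06, 4.35 and 32.2 CPM in Math1tdTomato libraries. All 3 Hoxa5tdTomato libraries lay above all others, while only replicate 3 of Math1Hoxa5-IRES-GFP lay above every reference. Hoxa5 was higher in Hoxa5tdTomato by 3.46 ± 0.59 on the log2 scale (± SE, adjusted p = 0.00712, quasi-likelihood F test of edgeR with Benjamini-Hochberg adjustment over 14732 genes). In Math1Hoxa5-IRES-GFP the difference of 1.35 ± 0.59 did not pass (edgeR adjusted p = 0.255), and without replicate 3 it was -0.10. A direction given for this group is that of the libraries labelled Math1Hoxa5-IRES-GFP, since their Hoxa5 counts do not set them apart from the references. Whether the counts include a Hoxa5 transcript made from the construct in the column names is not given, so its expression cannot be read from them. Replicate 3 of Math1Hoxa5-IRES-GFP also stood apart across all genes. Its Pearson correlations of log2(CPM + 1) with replicates 1 and 2 of its group were 0.896 and 0.890, where those 2 correlated at 0.946, and replicates of the other 3 column-name groups at 0.955 to 0.967. Total counts ran from 9973484 to 13302076 in Hoxa5tdTomato and creErt2 libraries and from 22355961 to 29820776 in Math1Hoxa5-IRES-GFP and tdT libraries, so depth and column name cannot be told apart.

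Across the classes, few members differed between groups. In Hoxa5tdTomato against Math1tdTomato, 0 of 17 tested members passed at an adjusted p under 0.05 (edgeR, 3 at an unadjusted p under 0.05), against 1.73% of all tested genes, and DESeq2 called 2, Th and Lhx1, both lower, against 4.43% of all genes. In Math1Hoxa5-IRES-GFP against Math1tdTomato, 0 of 17 passed (edgeR, 5 at an unadjusted p under 0.05), against 1.84% of all genes, and DESeq2 called Slc5a7 higher and Pax2 lower, against 5.69%. These comparisons share all 6 references. Each percentage counts genes at an adjusted p under 0.05, and the percentage at an unadjusted p under 0.05 was not counted. In Hoxa5tdTomato against Math1Hoxa5-IRES-GFP, 1 of 17 passed (edgeR), Lhx1, which was lower in Hoxa5tdTomato, against 3.35% of all genes in either direction and 2.43% called lower. DESeq2 called Lhx1 lower and Tfap2b higher there, against 10.2% of all genes. The median log2 difference of the 17 members was -0.06, 0.22 and -0.16 in these 3 comparisons, where the median of all genes was 0, 0 and 0.02. In this bulk RNA, fewer cells of a type and less RNA per cell cannot be told apart.

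The 6 references were also compared among themselves, since they carry 1 label. Between columns naming creErt2 and columns naming tdT, 0 of 17 members passed (edgeR with 4 groups, 2 at an unadjusted p under 0.05), against 1.34% of all genes, and DESeq2 called Th, lower in creErt2, against 4.19%. The median log2 difference of the members was -0.61, against 0 over all genes, and 5 of the 17 did not overlap between the 2 kinds of reference, against 24.6% of all genes. Ddc and Zic2 lay higher in creErt2 columns and Lhx1, Slc18a2 and Th lay lower. In this fit with 4 groups, 0 of 17 members passed in Hoxa5tdTomato against creErt2 references (edgeR, 2 at an unadjusted p under 0.05), against 0.557% of all genes, and 0 of 17 in Math1Hoxa5-IRES-GFP against tdT references (6 at an unadjusted p under 0.05), against 0.862%. These percentages too are of genes passing after adjustment and are no background for the counts at an unadjusted p. Lhx1 and Th passed in Hoxa5tdTomato against Math1Hoxa5-IRES-GFP, both lower, against 8.08% of all genes.

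**Figure D2:**
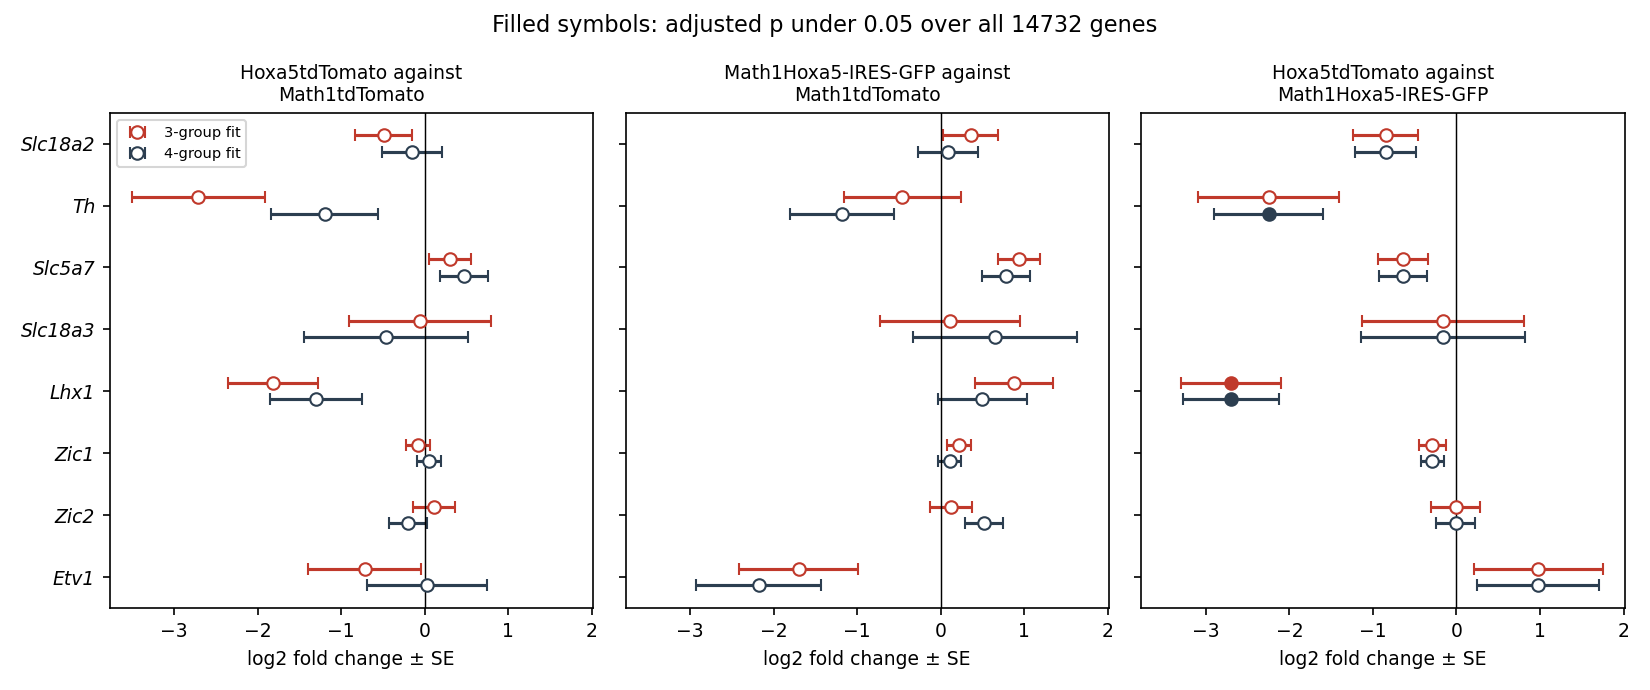
Log2 fold change (horizontal, ± SE) of the 8 members with a mean of at least 10 CPM in a column-name group, in each comparison of label groups, from the fit with 3 label groups (red) and the fit with 4 column-name groups (dark), which sets Hoxa5tdTomato against the creErt2 and Math1Hoxa5-IRES-GFP against the tdT references. Filled symbols passed at an adjusted p under 0.05. Points to the right of 0 are higher in the group named first; Lhx1 is at -2.70 in Hoxa5tdTomato against Math1Hoxa5-IRES-GFP.

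Among the monoaminergic genes, only vesicle loading and the first step of catecholamine synthesis were found at appreciable levels. Slc18a2, the vesicular monoamine transporter (chr19:59260896-59296012, plus strand, GRCm38), had 11.6, 14.2 and 19.9 CPM in Hoxa5tdTomato, 28.2, 18.3 and 35.7 CPM in Math1Hoxa5-IRES-GFP, and in Math1tdTomato 12.7, 19.5 and 18.4 CPM (creErt2) and 29.9, 24.4 and 23.1 CPM (tdT). The Hoxa5tdTomato libraries overlapped the creErt2 references and Math1Hoxa5-IRES-GFP but lay below all 3 tdT references, Math1Hoxa5-IRES-GFP overlapped both kinds of reference, and these did not overlap each other. Slc18a2 differed by -0.49 ± 0.34 in Hoxa5tdTomato and by 0.36 ± 0.33 in Math1Hoxa5-IRES-GFP against Math1tdTomato (log2, edgeR adjusted p = 0.573 and 0.623). Its exons share 111 bases with an antisense gene, Gm29261, and reads of the 2 cannot be told apart if strand was not used.

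Th, tyrosine hydroxylase, the rate-limiting enzyme of catecholamine synthesis (chr7:142892752-142931128, minus strand), had 0.978, 1.35 and 3.11 CPM in Hoxa5tdTomato. In Math1Hoxa5-IRES-GFP it had 3.59, 6.84 and 15.4 CPM. In Math1tdTomato it had 2.40, 4.80 and 5.25 CPM in creErt2 libraries and 15.5, 21.1 and 21.9 CPM in tdT libraries. All 3 Hoxa5tdTomato libraries lay below all 3 Math1Hoxa5-IRES-GFP libraries, and all 3 creErt2 references lay below all 3 tdT references. Th stood at -2.71 ± 0.80 in Hoxa5tdTomato against Math1tdTomato (log2, edgeR adjusted p = 0.0995; without Math1Hoxa5-IRES-GFP replicate 3, 0.0407), but at -1.20 against the creErt2 references alone (adjusted p = 0.649). Against Math1Hoxa5-IRES-GFP the difference was -2.25 ± 0.84 with 3 groups (edgeR adjusted p = 0.129) and -2.25 ± 0.65 with 4 (adjusted p = 0.0460). Between the references themselves, creErt2 against tdT, it was -2.23 ± 0.65 (edgeR adjusted p = 0.113; DESeq2 0.0147).

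The rest of the monoamine chain was scarce. Ddc, which turns L-DOPA and 5-HTP into dopamine and serotonin, had 0.0915 to 1.35 CPM in Hoxa5tdTomato, 0 to 1.98 CPM in Math1Hoxa5-IRES-GFP and 0 to 1.78 CPM in Math1tdTomato. Dbh, which makes noradrenaline from dopamine, had 1 count in all 12 libraries together. Tph2, the serotonin-synthesizing hydroxylase of neurons, was found in 4 libraries, at 1.37 CPM in Hoxa5tdTomato replicate 3, at 0.178 CPM in creErt2 reference 1 and at 1.14 and 2.19 CPM in tdT references 1 and 3, and in no Math1Hoxa5-IRES-GFP library. The library with the most Tph2 also had the most Slc6a4, the serotonin transporter, at 1.63 CPM. Slc6a2 and Slc6a3, the noradrenaline and dopamine transporters, had 8 counts each over all libraries. Tfap2b, a transcription factor of noradrenergic neurons, had 3.20, 0.539 and 0 CPM in Hoxa5tdTomato, no count in Math1Hoxa5-IRES-GFP and 0 to 1.31 CPM in Math1tdTomato. Its mean was at least 25.2-fold higher in Hoxa5tdTomato than in Math1Hoxa5-IRES-GFP, with 3 counts over the group as the floor (edgeR adjusted p = 0.105; DESeq2 0.0496), and replicate 1 held most of it. Among the 9 untested members of the class, Gch1, Gata3, Lmx1b, Maob and Phox2a reached at most 1.74 CPM in any library.

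None of the 10 tested companions of this chain, of 17 listed, passed in any of the 3 label comparisons (edgeR, 0, 2 and 2 at an unadjusted p under 0.05). The most abundant per kilobase made or recycled the pterin cofactor that hydroxylases such as Th need. Qdpr averaged 37.7 ± 3.99 CPM in Hoxa5tdTomato, 14.3 ± 11.4 CPM in Math1Hoxa5-IRES-GFP and 26.2 ± 6.09 CPM in Math1tdTomato (SD, n = 3, 3 and 6). Pts averaged 17.3 ± 6.08, 20.3 ± 13.1 and 15.6 ± 5.33 CPM in the same groups.

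Among the cholinergic and motor genes, transporters were found without the transcription factors of motor neurons. Slc5a7, the high-affinity choline transporter (chr17:54273590-54299034, minus strand), had 93.3, 94.9 and 86.4 CPM in Hoxa5tdTomato. In Math1Hoxa5-IRES-GFP it had 158, 197 and 72.2 CPM. In Math1tdTomato it had 54.0, 85.6 and 58.1 CPM (creErt2) and 85.3, 73.3 and 89.9 CPM (tdT). Replicates 1 and 2 of Math1Hoxa5-IRES-GFP lay above every other library, and replicate 3 lay within the references. The difference from Math1tdTomato was 0.94 ± 0.25 on the log2 scale (edgeR adjusted p = 0.0643), 0.78 against the tdT references alone (adjusted p = 0.251), and 1.26 without replicate 3 (adjusted p = 0.00151). DESeq2 called it with all libraries at 0.94 (adjusted p = 0.0124). In Hoxa5tdTomato against Math1tdTomato the difference was 0.30 ± 0.25 (edgeR adjusted p = 0.672), although all 3 libraries lay above the 3 creErt2 references. Between Hoxa5tdTomato and the creErt2 references, 4 of 17 members (Chat, Gata2, Lhx1 and Slc5a7) did not overlap, against 25.3% of all tested genes.

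Chat, which makes acetylcholine (chr14:32408203-32465989, minus strand), and Slc18a3, which loads it into vesicles and lies inside the span of Chat on its strand with no shared exonic base (chr14:32462438-32464850), varied from library to library. Chat had 2.22, 1.35 and 3.02 CPM in Hoxa5tdTomato, 7.08, 12.1 and 0 CPM in Math1Hoxa5-IRES-GFP, and 4.35, 4.18, 4.07, 0.250, 4.30 and 0.257 CPM in Math1tdTomato. Slc18a3 had 5.34, 13.3 and 5.31 CPM in Hoxa5tdTomato, 4.24, 22.3 and 0.301 CPM in Math1Hoxa5-IRES-GFP, and 16.0, 8.62, 8.24, 2.35, 11.7 and 3.04 CPM in Math1tdTomato. Within the tdT references both genes were highest in replicate 2, and within Math1Hoxa5-IRES-GFP both were highest in replicate 2 and lowest in replicate 3, so all groups overlapped in both genes, save that Chat lay lower in Hoxa5tdTomato than in the creErt2 references, where 25.3% of all tested genes did not overlap. In Hoxa5tdTomato and Math1Hoxa5-IRES-GFP against Math1tdTomato, Chat stood at -0.40 ± 1.18 and 1.14 ± 1.11 (log2, edgeR adjusted p = 0.932 and 0.649). Slc18a3 stood at -0.06 ± 0.85 and 0.11 ± 0.84 (edgeR adjusted p = 0.988 and 0.964), with a sign that changed with the scaling of the libraries in both. Slc5a7 was thus counted at 13.5 CPM per kilobase in the references, against 3.45 for Slc18a3 and 0.621 for Chat.

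Of the motor neuron transcription factors, Mnx1 and Lhx3 had no count, Isl2 had 1 count and Isl1 had 5 counts over all libraries. Prph, an intermediate filament of motor and peripheral neurons, had 0.337 to 2.85 CPM in Hoxa5tdTomato, 0 to 1.35 CPM in Math1Hoxa5-IRES-GFP and 0 to 2.87 CPM in Math1tdTomato, and all groups overlapped. None of the 9 tested companions, of 15 listed, passed in the 3 label comparisons (edgeR, 0, 1 and 1 at an unadjusted p under 0.05). Chka, a choline kinase, averaged 125 ± 6.70 CPM in Hoxa5tdTomato, 82.5 ± 12.3 CPM in Math1Hoxa5-IRES-GFP and 98.8 ± 17.9 CPM in Math1tdTomato (SD, n = 3, 3 and 6).

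**Figure D3:**
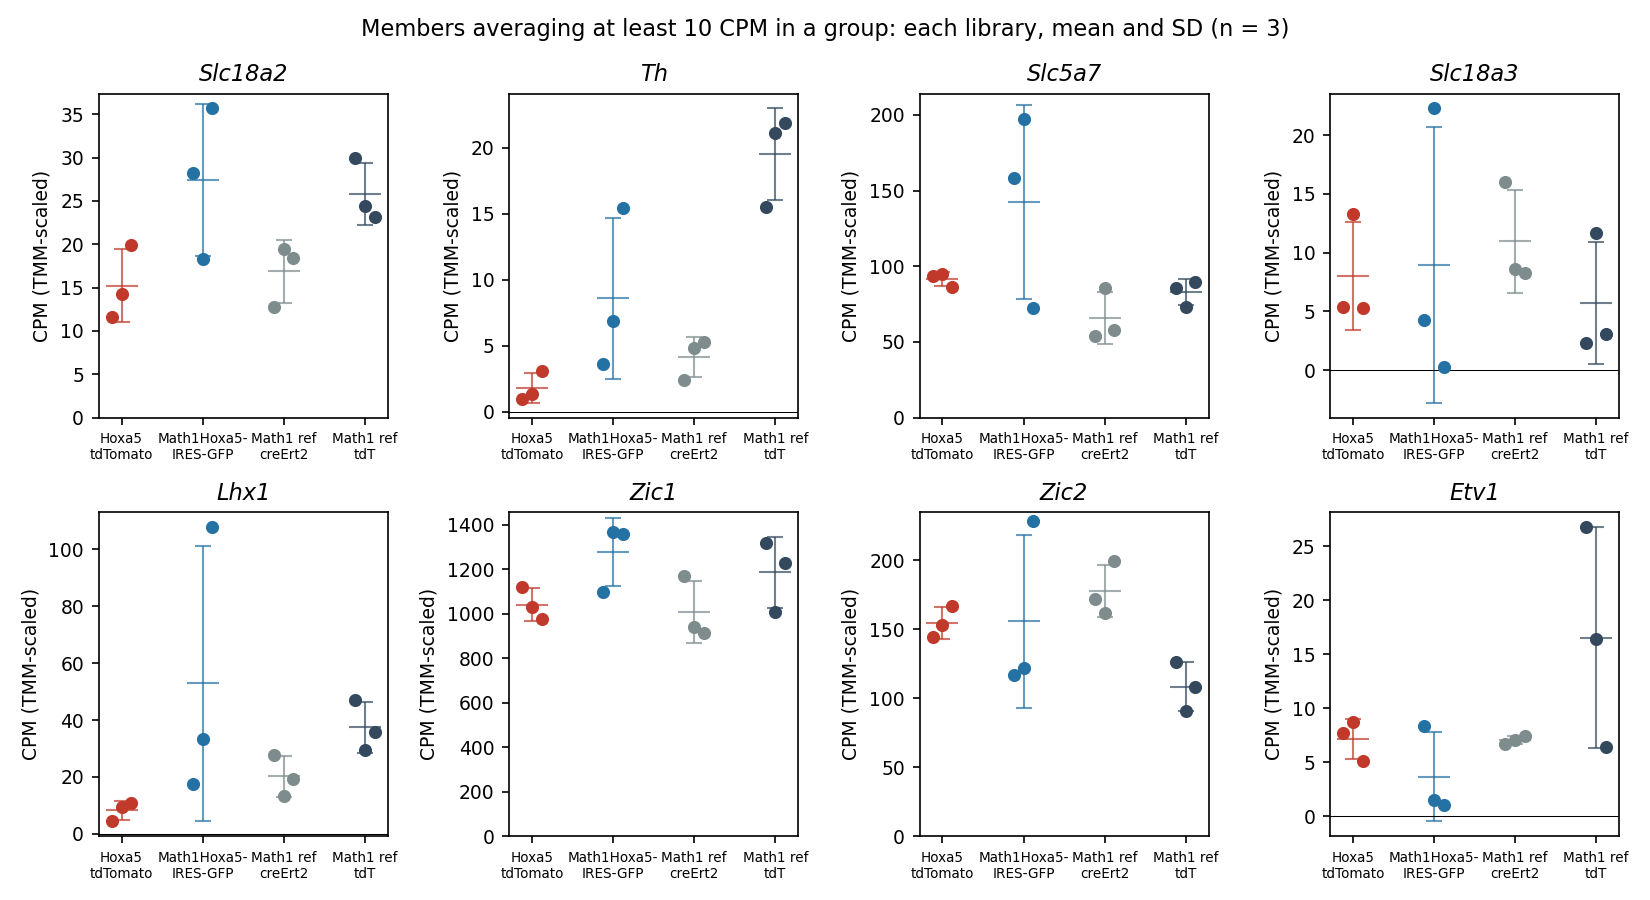
CPM of the 8 members with a mean of at least 10 CPM in a column-name group, 1 point per library, with the mean and SD of each group as a bar; each panel has its own linear axis. Lhx1 lies lower in all 3 Hoxa5tdTomato libraries than in every other library, and replicate 3 of Math1Hoxa5-IRES-GFP sits at 108 CPM.

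Lhx1 was the abundant inhibitory member and the only one of the 40 that edgeR called with all 12 libraries in 3 label groups and the filter on low counts. Lhx1, a LIM homeodomain factor of Purkinje cells and inhibitory interneurons (chr11:84518284-84525535, minus strand), had 4.36, 9.36 and 10.8 CPM in Hoxa5tdTomato. In Math1Hoxa5-IRES-GFP it had 17.4, 33.2 and 108 CPM. In Math1tdTomato it had 27.8, 13.3 and 19.3 CPM (creErt2) and 47.2, 29.3 and 35.8 CPM (tdT). The 3 Hoxa5tdTomato libraries lay below all 9 others, and the creErt2 references lay below the tdT references. Against Math1Hoxa5-IRES-GFP, Lhx1 was lower by a log2 difference of -2.70 ± 0.60 (edgeR adjusted p = 0.0318; with 4 groups 0.0103; DESeq2 0.000351). Without Math1Hoxa5-IRES-GFP replicate 3 the difference was -1.63 (adjusted p = 0.0814 with 3 groups and 0.0200 with 4), and without Hoxa5tdTomato replicate 1, 2 or 3 the adjusted p was 0.144, 0.134 or 0.0962. With library totals as the only scaling it was -2.36 (adjusted p = 0.0539), where the median of all genes stood at 0.30. In Hoxa5tdTomato against Math1tdTomato, Lhx1 stood at -1.82 ± 0.54 (edgeR adjusted p = 0.0995; DESeq2 0.0120), and without Math1Hoxa5-IRES-GFP replicate 3, a library of neither group, the adjusted p was 0.0181. In Math1Hoxa5-IRES-GFP against Math1tdTomato it stood at 0.88 ± 0.47 (edgeR adjusted p = 0.363).

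Gata2, a zinc-finger factor of GABAergic neurons of the midbrain and hindbrain that endothelial cells express as well (chr6:88193891-88207032, plus strand), was low but orderly. It had 2.85, 1.48 and 2.29 CPM in Hoxa5tdTomato, 0, 0.764 and 0 CPM in Math1Hoxa5-IRES-GFP, and in Math1tdTomato no count in creErt2 libraries and 0.107, 0.589 and 0 CPM in tdT libraries. All 3 Hoxa5tdTomato libraries lay above all 9 others. Against the creErt2 references Gata2 was at least 23.9-fold higher, with 3 counts over the group as the floor, but neither comparison of label groups passed (edgeR adjusted p = 0.220 against Math1tdTomato and 0.377 against Math1Hoxa5-IRES-GFP). Counting groups that do not overlap, Gata2 and Lhx1 were 2 of 17 members in Hoxa5tdTomato against Math1tdTomato, against 14.1% of all genes. Gata2, Pax2, Lhx1 and Th were 4 of 17 in Hoxa5tdTomato against Math1Hoxa5-IRES-GFP, against 27.7% of all genes, and in Math1Hoxa5-IRES-GFP against Math1tdTomato 0 of 17 did not overlap, against 6.37%. Gata2 passed the filter on low counts only through the Hoxa5tdTomato libraries, where it had 32, 22 and 25 counts. Its place in these counts of groups that do not overlap, and in that against the creErt2 references, is thus favoured by the filter and is no support for a difference.

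Markers of blood vessels, and of some but not all other non-neuronal cells, were also high in the Hoxa5tdTomato libraries. The summed level of 8 endothelial genes was 92.4, 83.1 and 167 CPM in Hoxa5tdTomato, 1.02, 35.6 and 0.15 CPM in Math1Hoxa5-IRES-GFP, and 9.32, 2.58, 22.4, 0.749, 16.1 and 13.6 CPM in Math1tdTomato. All 8 endothelial genes were tested, all 8 had a positive log2 difference in Hoxa5tdTomato against Math1tdTomato, all at an unadjusted p under 0.05, and 1 passed after adjustment (edgeR with 3 groups), against 1.73% of all tested genes. Against the creErt2 references alone all 8 stayed positive, 2 were at an unadjusted p under 0.05 and 0 passed (edgeR with 4 groups), against 0.557% of all tested genes. None of the 8 was at 0 in Hoxa5tdTomato. The 7 pericyte and mural genes summed to 101 to 203 CPM in Hoxa5tdTomato, 2.21 to 46.4 CPM in Math1Hoxa5-IRES-GFP and 0.963 to 21.6 CPM in Math1tdTomato, and 3 of 6 tested passed in Hoxa5tdTomato against Math1tdTomato with 3 groups, but 0 of 6 against the creErt2 references alone (edgeR, 3 at an unadjusted p under 0.05). The shares of all tested genes were again 1.73% and 0.557%. They are of genes passing after adjustment and are no background for the counts at an unadjusted p or of positive differences. For all lists described here, no share of all genes was counted for those. The median log2 difference of all genes was 0 against Math1tdTomato and -0.01 against the creErt2 references. The 6 meningeal genes summed to 9.43 to 14.7 CPM in Hoxa5tdTomato, 0 to 7.24 CPM in Math1Hoxa5-IRES-GFP and 0.729 to 3.99 CPM in Math1tdTomato, with Dcn and Aldh1a2 at 0 in Hoxa5tdTomato, and 0 of 3 tested passed (edgeR with 3 groups, 2 at an unadjusted p under 0.05). The 7 oligodendrocyte lineage genes summed to 79.4 to 99.3, 39.6 to 72.6 and 39.9 to 81.7 CPM in the same groups, and the 6 microglial genes to 7.47 to 35.8, 0 to 3.69 and 0.321 to 8.51 CPM. All 7 and all 4 tested of these lists stood above 0 in Hoxa5tdTomato against Math1tdTomato, and none passed (edgeR with 3 groups, 2 and 0 at an unadjusted p under 0.05). The 8 astrocyte and radial glia genes summed to 649 to 1000 CPM in Hoxa5tdTomato, 564 to 928 CPM in Math1Hoxa5-IRES-GFP, and 781 to 942 (creErt2) and 571 to 815 CPM (tdT) in the references. Gfap was at 0 in Hoxa5tdTomato. The 3 erythroid genes summed to 7.83 to 17.4, 0.702 to 4.81, 11.9 to 13.9 and 0.642 to 3.08 CPM in the same order. Of these, 5 of 7 and 2 of 2 tested stood above 0 in the same comparison, and none passed (edgeR, 0 at an unadjusted p under 0.05). In Math1Hoxa5-IRES-GFP the library with Gata2 counts, replicate 2, was also the one with the highest endothelial sum. Among the tdT references, replicate 2 also had the most of both, at 16.1 CPM of these markers and 0.589 CPM of Gata2. There replicate 3 had 13.6 CPM of the markers and no Gata2 count, and replicate 1 had 0.749 CPM of them and 0.107 CPM of Gata2. The order differed in Hoxa5tdTomato, where the library at 167 CPM of endothelial markers did not have the most Gata2. Of the creErt2 references, replicate 3 had 22.4 CPM of the markers and no Gata2 count. The part of these cells in the Gata2 counts was not tested. Conversely, 12 genes listed for glutamatergic Math1-lineage neurons summed to 4300 to 4800 CPM in Hoxa5tdTomato, 5860 to 8320 CPM in Math1Hoxa5-IRES-GFP and 6150 to 8230 CPM in Math1tdTomato. This list holds the general neuronal genes Tubb3 and Rbfox3, so its sum is not particular to that lineage. It shares Barhl1, Barhl2, Pax6, Lhx2 and Lhx9 with the granule neuron companions below. Eomes was at 0 outside the creErt2 references, and Tbr1 was at 0 in Math1Hoxa5-IRES-GFP. Of 10 tested, 1 passed in Hoxa5tdTomato against Math1tdTomato, as lower, against 1.73% of all tested genes (edgeR with 3 groups, 3 at an unadjusted p under 0.05). The part of this sum in the lower Lhx1 of Hoxa5tdTomato was not tested.

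**Figure D4:**
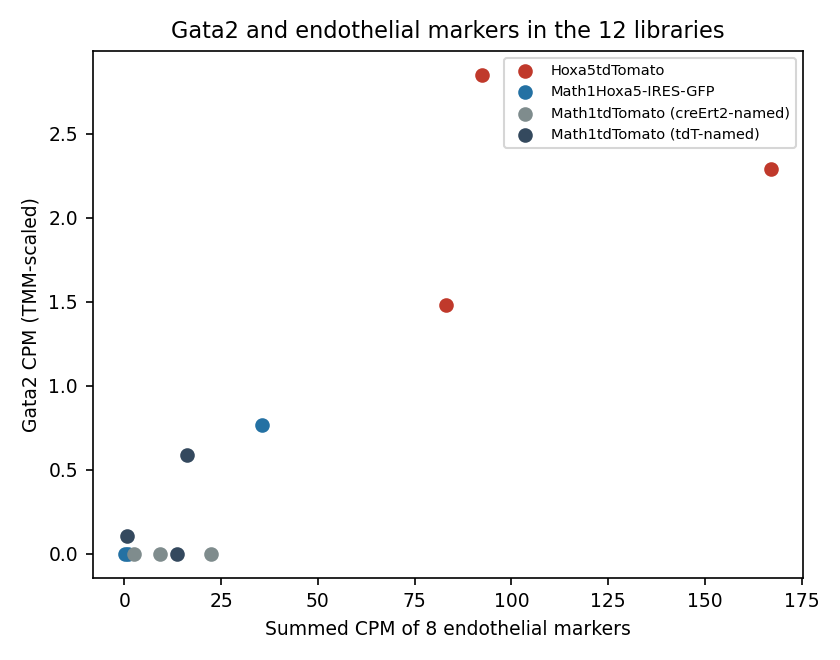
Gata2 (CPM, vertical) against the summed CPM of 8 endothelial markers (horizontal) in the 12 libraries, coloured by column-name group. The 3 Hoxa5tdTomato libraries lie highest on both axes, at 1.48 to 2.85 CPM of Gata2 and 83.1 to 167 CPM of endothelial markers.

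Pax2, a factor of GABAergic interneuron precursors, had 0.889, 0.404 and 0.457 CPM in Hoxa5tdTomato, 0.0931, 0.180 and 0 CPM in Math1Hoxa5-IRES-GFP, and 0.444, 4.26, 1.45, 5.81, 2.99 and 0.129 CPM in Math1tdTomato. The Math1Hoxa5-IRES-GFP libraries lay below the Hoxa5tdTomato libraries, and both lay within or under a wide reference range. In Math1Hoxa5-IRES-GFP against Math1tdTomato the fitted log2 difference was -4.67 ± 1.48 (edgeR adjusted p = 0.119; DESeq2 -4.78, adjusted p = 0.00750). Ptf1a, Dlx5 and Dlx6 had no count, and Lhx5 and Dlx1 had 6 and 8 counts over all libraries. Dlx2 had 117 counts in all, of which 107 came from Math1Hoxa5-IRES-GFP replicate 2 at 4.81 CPM, which was 85.8% of its summed CPM. Tal1, a partner of Gata2 and Gata3 that blood and endothelial lineages express as well, had 0.135 to 0.366 CPM in Hoxa5tdTomato, no count in Math1Hoxa5-IRES-GFP and 0 to 1.69 CPM in Math1tdTomato.

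The 2 enzymes that make GABA were far apart in level. Gad2 had 108, 209 and 152 CPM in Hoxa5tdTomato, 145, 200 and 323 CPM in Math1Hoxa5-IRES-GFP, and 174, 141, 163, 260, 127 and 151 CPM in Math1tdTomato. Gad1 had 3.11, 1.89 and 3.48 CPM in Hoxa5tdTomato, no count in Math1Hoxa5-IRES-GFP, and 0.444, 1.95, 3.80, 0.0357, 2.35 and 0.214 CPM in Math1tdTomato. Per kilobase in the references this was 24.6 CPM for Gad2 and 0.206 CPM for Gad1, and Slc32a1, the vesicular transporter of GABA and glycine, stood at 0.0646. Gad1 was at least 57.9-fold higher in Hoxa5tdTomato than in Math1Hoxa5-IRES-GFP (edgeR adjusted p = 0.0414), the only 1 of 9 tested GABA and glycine companions, of 15 listed, to pass there, against 3.35% of all tested genes, and none passed in the comparisons with Math1tdTomato (edgeR, 4 and 5 at an unadjusted p under 0.05). This call held under 8 of 19 alternatives, with an adjusted p of 0.000848 to 0.137, and was lost without any 1 Hoxa5tdTomato library, without Math1Hoxa5-IRES-GFP replicate 2 or 3, creErt2 replicate 2 or 3, or tdT replicate 2, with library totals as the only scaling (0.0539), after thinning (0.0561) and with a replicate block (0.0648). Slc32a1 averaged 3.15 ± 2.19 CPM in Hoxa5tdTomato, 0.155 ± 0.269 CPM in Math1Hoxa5-IRES-GFP and 0.181 ± 0.270 CPM in Math1tdTomato (SD, n = 3, 3 and 6; edgeR adjusted p = 0.157 for Hoxa5tdTomato against Math1tdTomato). Slc17a6, the vesicular glutamate transporter of the rhombic lip lineage, averaged 304 ± 3.46 CPM in Hoxa5tdTomato, 420 ± 84.8 CPM in Math1Hoxa5-IRES-GFP and 368 ± 63.2 CPM in Math1tdTomato.

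The granule neuron class divided into 2 abundant Zic genes and a scarce remainder. Zic1, a zinc-finger factor of granule neurons and of other dorsal hindbrain lineages (chr9:91358058-91365810, minus strand), had 1120, 1030 and 975 CPM in Hoxa5tdTomato. In Math1Hoxa5-IRES-GFP it had 1100, 1370 and 1360 CPM, and in Math1tdTomato 1170, 940, 914, 1320, 1010 and 1230 CPM. All groups overlapped, and the spread over all 12 libraries was small. The log2 difference from Math1tdTomato was -0.08 ± 0.14 in Hoxa5tdTomato, which changed sign with the scaling, and 0.22 ± 0.14 in Math1Hoxa5-IRES-GFP (edgeR adjusted p = 0.876 and 0.448). Zic1 shares 60 exonic bases with Zic4 on the opposite strand. Zic4 averaged 755 ± 93.9 CPM in Hoxa5tdTomato, 1070 ± 96.8 CPM in Math1Hoxa5-IRES-GFP, 513 ± 53.5 CPM in creErt2 references and 813 ± 23.8 CPM in tdT references (SD, n = 3 each), and was lower in creErt2 than in tdT references by a log2 difference of -0.67 ± 0.13 (edgeR with 4 groups, adjusted p = 0.0198; without any 1 of the 6 references, 0.0561 to 0.127).

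Zic2 (chr14:122475435-122479852, plus strand) had 144, 153 and 167 CPM in Hoxa5tdTomato. In Math1Hoxa5-IRES-GFP it had 117, 122 and 228 CPM, and in Math1tdTomato 172, 162 and 199 CPM (creErt2) and 126, 90.8 and 108 CPM (tdT). The 2 kinds of reference did not overlap, with creErt2 above tdT by 0.71 ± 0.23 on the log2 scale (edgeR adjusted p = 0.163; without Math1Hoxa5-IRES-GFP replicate 3, 0.00947). This was the opposite order to Zic4. Against Math1tdTomato, Zic2 differed by 0.11 ± 0.25 in Hoxa5tdTomato and by 0.12 ± 0.25 in Math1Hoxa5-IRES-GFP, and both signs changed with the fit or the scaling (edgeR adjusted p = 0.898 and 0.842).

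Etv1, an ETS factor of maturing granule neurons (chr12:38779380-38870484, plus strand), had 7.74, 8.69 and 5.12 CPM in Hoxa5tdTomato. In Math1Hoxa5-IRES-GFP it had 8.38, 1.48 and 1.05 CPM, and in Math1tdTomato 6.66, 7.02 and 7.43 CPM (creErt2) and 26.8, 16.4 and 6.39 CPM (tdT). Replicates 2 and 3 of Math1Hoxa5-IRES-GFP lay below every other library, and replicate 1 lay among the references. The difference from Math1tdTomato was -1.70 ± 0.71 (log2, edgeR adjusted p = 0.236; without Math1Hoxa5-IRES-GFP replicate 1, -3.21 and 0.0334). Cbln3, a cerebellin of granule neurons, had 0.889, 0 and 3.39 CPM in Hoxa5tdTomato, 0.0466, 4.09 and 0 CPM in Math1Hoxa5-IRES-GFP and 0 to 3.39 CPM in Math1tdTomato. En1, an engrailed factor of the anterior hindbrain, had 67 of its 80 counts in Math1Hoxa5-IRES-GFP replicate 3, at 3.36 CPM and 79.7% of its summed CPM, and no count in any reference. Tlx3 had 25 of its 30 counts in Math1Hoxa5-IRES-GFP replicate 2 (75.8% of its summed CPM).

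Of the 25 members with at least 10 counts in total, 4 had over 50% of their summed CPM in 1 library: Dlx2, En1, Tlx3 and Maob, the last with 56.3% in Hoxa5tdTomato replicate 3. None of the 4 was tested. Among 17 granule neuron companions, 15 were tested and 1 passed in each comparison of label groups, each lower in the group named first. Over all tested genes 1.73%, 1.84% and 3.35% passed in Hoxa5tdTomato against Math1tdTomato, Math1Hoxa5-IRES-GFP against Math1tdTomato, and Hoxa5tdTomato against Math1Hoxa5-IRES-GFP (edgeR). Cntn2, an axonal adhesion molecule, averaged 217 ± 19.0 CPM in Hoxa5tdTomato and 574 ± 155 CPM in Math1tdTomato (SD, n = 3 and 6; log2 difference -1.41 ± 0.27, edgeR adjusted p = 0.0141; against creErt2 references alone adjusted p = 0.0940; without Hoxa5tdTomato replicate 1, 2 or 3, 0.119, 0.102 or 0.0766). Lhx2, a LIM homeodomain factor, averaged 0.923 ± 1.30 CPM in Math1Hoxa5-IRES-GFP and 33.5 ± 24.2 CPM in Math1tdTomato (-5.16 ± 0.94, edgeR adjusted p = 0.00732; against tdT references alone 0.00524), and it passed under all 19 alternatives run. Pax6, a paired homeodomain factor of rhombic lip derivatives, averaged 181 ± 22.2 CPM in Hoxa5tdTomato and 379 ± 145 CPM in Math1Hoxa5-IRES-GFP (-1.06 ± 0.23, edgeR adjusted p = 0.0307), and passed under 13 of 19 alternatives; it did not without any 1 Hoxa5tdTomato library (0.116 to 0.137), without Math1Hoxa5-IRES-GFP replicate 3 (0.0686), with library totals as the only scaling (-0.76, 0.0758) or with a replicate block (0.0585).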

How the data were processed

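RNA sequencing was done on 12 libraries of sorted pontine nucleus neurons, with 2000 cells per replicate and RNA of 1000 cell equivalents amplified, per the labels' protocols. The authors deposited raw counts per gene in a single table, not normalized, beside gene lengths in bases. The submitters' processing notes name build mm10 and bcl2fastq 1.8.4; which aligner, counter, annotation and strand option they used is not given in the sources used here. Column names gave the group of each library; reference columns could not be matched to label numbers 1 to 6 and were used by group. Columns of samples outside the series numbered 0. GENCODE M21 (GRCm38) gave positions and RefSeq (GRCm38.p6) promoters, for 33 of the 40 members.

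Genes passing filterByExpr at a minimum count of 10 (14732) entered edgeR 4.0.16 (R 4.3.3; quasi-likelihood F test), with TMM scaling and Benjamini-Hochberg adjustment over all of them, held against 0.05. The main fit had 3 label groups, and 4 column-name groups served for the references among themselves. The SE of a log2 fold change is its size divided by the square root of F. DESeq2 1.42.0 (share of calls over genes with an adjusted p), library totals as the only scaling, no filter, thinning to the smallest library, a replicate block, 4 groups and leaving out each library were alternatives; 4 groups without Math1Hoxa5-IRES-GFP replicate 3 was added after seeing the data. Fits were tested on simulated data. CPM uses TMM-scaled totals. Limits from a count of 0 take 3 counts and cover counting error only, since amplified reads are not independent molecules. The members and lists were chosen with earlier results of these data known. Members were given with values when they passed in a comparison or averaged at least 10 CPM in a column-name group; other members named with values, and the transmitter enzymes and transporters outside the list, were chosen after their values were seen.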

Additional observations from a re-analysis of the deposited data

Results flagged for a closer look

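In the 6 Math1tdTomato references, 18 genes were looked at for a library far from the other 5, with the gap to the nearest library divided by the whole range held against Dixon's critical value. Chance flags about 1 in 20 such sets where values are normally distributed. Counts near 0 are not, so that rate cannot be held against the scarce genes. Of the 18, 3 stood out, all at low levels and each in a different tdT library. Slc6a4, the serotonin transporter, had 1.63 CPM in tdT replicate 3, where the next reference had 0.178 CPM (ratio 0.891). Gata2 had 0.589 CPM in tdT replicate 2, where the next had 0.107 CPM (ratio 0.818). Cbln3 had 3.39 CPM in tdT replicate 1, where the next had 1.15 CPM (ratio 0.659).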

How the results depend on the processing

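Of 923 values of named genes under the alternatives, 821 kept direction and call, 35 kept direction and lost the call, 20 gained it, and 47 changed sign. With library totals as the only scaling the median of all genes moved to 0.16, -0.13, 0.30 and 0.10 in Hoxa5tdTomato against Math1tdTomato, Math1Hoxa5-IRES-GFP against Math1tdTomato, Hoxa5tdTomato against Math1Hoxa5-IRES-GFP, and creErt2 against tdT references; between Hoxa5tdTomato and Math1Hoxa5-IRES-GFP, 0 members and 148 genes were called, 116 higher and 32 lower, against 135 higher and 358 lower with TMM. In the same order it called 170, 105 and, for the references, 139 genes higher and 70, 94 and 48 lower, against 124, 191 and 105 higher and 131, 80 and 92 lower with TMM. DESeq2 called 2, 2, 2 and 1 members and 622, 831, 1484 and 589 genes in the 4 comparisons, and gave no adjusted p for Hoxa5 in the first. Without the filter, Math1Hoxa5-IRES-GFP against Math1tdTomato had 1 member called. With 4 groups, 82 and 127 genes were called against the references of 1 kind, and 2 members and 1191 genes between Hoxa5tdTomato and Math1Hoxa5-IRES-GFP. Also without Math1Hoxa5-IRES-GFP replicate 3, this last comparison had 2 members and 1365 genes, and Math1Hoxa5-IRES-GFP against tdT references had 1 member. The causes of these changes were not tested.

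Leaving out each library in turn, members called ran from 0 to 2, 0 to 1, 0 to 1 and 0 to 2, and genes called from 35 to 728, 190 to 575, 0 to 1157 and 38 to 784, in the same order of comparisons. Changes of sign were all in differences that had not passed. With library totals as the only scaling, Slc18a3 stood at 0.08, -0.02 and 0.10 and Zic1 at 0.09 and Zic2 at -0.03 and 0.30. Zic2 in Hoxa5tdTomato against Math1Hoxa5-IRES-GFP stood at 0.01 with DESeq2 and without the filter, and at 0.03 after thinning, where Slc18a3 in Math1Hoxa5-IRES-GFP stood at -0.03. With 4 groups, Hoxa5tdTomato against creErt2 references gave Zic1 0.05, Zic2 -0.20 and Etv1 0.03, and without Math1Hoxa5-IRES-GFP replicate 3 Zic1 0.04, Zic2 -0.20 and Etv1 0.03. In that last fit Math1Hoxa5-IRES-GFP against tdT references gave Hoxa5 -0.16, Slc18a2 -0.15 and Lhx1 -0.57, and Hoxa5tdTomato against Math1Hoxa5-IRES-GFP gave Zic2 0.37. Leaving out single libraries, Hoxa5tdTomato against Math1tdTomato ran from -0.64 to 0.24 for Slc18a3 and -0.13 to 0.01 for Zic1. Math1Hoxa5-IRES-GFP against Math1tdTomato ran from -4.15 to 2.87 for Gata2, -0.10 to 1.8 for Hoxa5, -0.19 to 1.30 for Lhx1, -1.86 to 0.68 for Slc18a3 and -0.26 to 0.29 for Zic2. Hoxa5tdTomato against Math1Hoxa5-IRES-GFP ran from -0.75 to 1.82 for Slc18a3 and -0.18 to 0.37 for Zic2, and creErt2 against tdT references from -0.78 to 1.11 for Hoxa5.

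The replicate numbers did not pair the libraries: over 18 pairs of the same number, deviations from the group means correlated at -0.05 to 0.04, with 0 pairs over 0.1. With a replicate block, Hoxa5tdTomato against Math1Hoxa5-IRES-GFP had 0 members and 114 genes called, Lhx1 stood at -2.52 (adjusted p = 0.056), Slc18a3 at 0.47 and Zic2 at 0.04. In the same fit Slc18a3 in Math1Hoxa5-IRES-GFP against Math1tdTomato stood at -0.66 and Hoxa5 in creErt2 against tdT references at 0.10. Depth limits the scarce members: 15 of 40 had under 10 counts in total, and none of these passed the filter on low counts, so no difference in them was tested.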
